A study of Mus musculus with 6 samples.

Results

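The superoxide dismutases, catalase and the glutathione peroxidases are the enzymes that turn superoxide and hydrogen peroxide into water. Their transcripts were followed through the probe sets of a mouse expression array whose annotation named exactly 1 gene, that gene being Sod1, Sod2, Sod3, Cat, Gpx1, Gpx2, Gpx3, Gpx4, Gpx7 or Gpx8. All 10 genes were measured, of 17097 genes with a probe set of their own, by 17 of 45037 probe sets, with 8 for the superoxide dismutases, 2 for catalase and 7 for the glutathione peroxidases. More than 1 probe set stood for 5 of the genes, and no probe set named a member together with another gene. RNA came from whole lungs of 6 male BALB/c mice, labelled as 10 weeks old. The control group was 3 mice kept in normal air, and the hydrogen group was 3 mice kept for 3 weeks in air with 2% H2, a gas studied for its effects on oxidative stress. The labels number 3 lung samples in each group, taken here as 1 mouse each since nothing speaks of pooling, and each gave 1 array. No other agent or allele was named for either group. The comparison asks which lung transcripts differed after the exposure.

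Superoxide dismutases convert superoxide to oxygen and hydrogen peroxide. Sod1 encodes the copper and zinc enzyme of the cytosol, Sod2 the manganese enzyme of the mitochondrial matrix, and Sod3 the secreted copper and zinc enzyme, which is abundant in lung matrix and vessel walls. Catalase breaks down hydrogen peroxide in peroxisomes, and glutathione peroxidases reduce peroxides at the expense of glutathione. Gpx1 to Gpx4 carry selenocysteine at the active site, while Gpx7 and Gpx8 are enzymes of the endoplasmic reticulum with cysteine in its place.

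In the deposited values, superoxide dismutase and glutathione peroxidase transcripts were mostly lower in the hydrogen group. Catalase and Gpx4 each rose by 1 of 2 probe sets. Of the 17 probe sets, 9 fell, 3 rose and 5 did not pass an adjusted p of 0.05 (limma with Benjamini-Hochberg adjustment over all 45037 probe sets). Across the whole array 22.8% of probe sets were called lower, 24.3% higher and 47.1% in either direction. Among probe sets brighter than the median probe set, to which 15 of the 17 belonged, 54.9% were called, 38.2% lower and 16.7% higher, beside 9 lower and 2 higher of the 15. The changes were small: none reached 2-fold, and as linear folds, the probe set at the lower end fell by 44.0% and the one at the upper end rose by 31.0%. On the log2 scale the 17 probe sets had a median change of -0.28. The median was 0.02 for all probe sets and -0.12 for those brighter than the median probe set. The median absolute change was 0.34, against 0.18 for all probe sets, dim ones included. It was not computed for the brighter ones alone. The split depended on the scaling between arrays. After quantile normalisation of the deposited values over the 6 arrays 3 fell and 5 rose, after cyclic loess 5 fell and 4 rose, and after median centring 10 fell and 2 rose. The lower calls of Gpx1, Gpx2, Gpx7 and Gpx8 were all lost after quantile normalisation (adjusted p = 0.0501, 0.282, 0.0706 and 0.0711). The probe sets past the threshold in 1 direction as deposited, after quantile normalisation and after cyclic loess were 5: 1448610_PM_a_at and 1454976_PM_at of Sod2 and 1440222_PM_at of Sod1 (lower), 1416430_PM_at of Cat and 1456193_PM_x_at of Gpx4 (higher). Of these, the Sod1 and Gpx4 probe sets each lost the call under 4 of the 13 alternatives run. For Gpx4 these included median centring (0.10, adjusted p = 0.169).

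**Figure D1:**
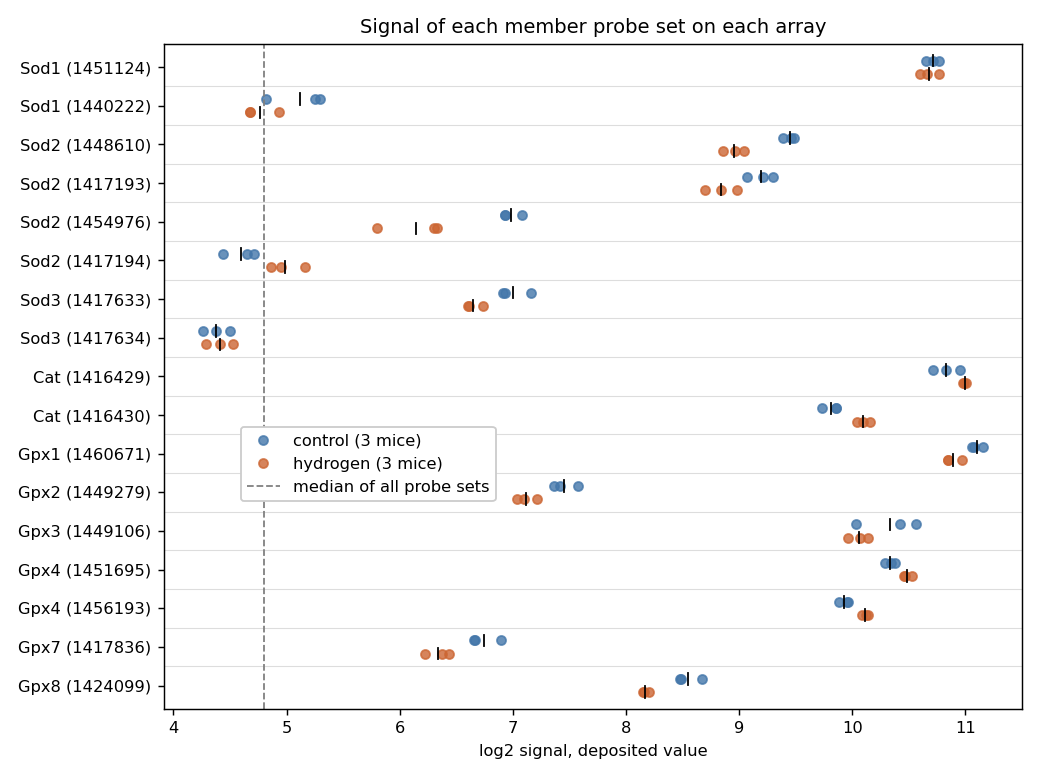
Deposited log2 signal (horizontal axis) of each of the 17 probe sets (rows, with gene and probe set) on each array. Points are mice, black ticks are group means (n = 3), and the dashed line is the median of all probe sets at 4.80. The groups do not overlap in 13 rows, with hydrogen lower in 8 of them and higher in 5. Over all probe sets 57.3% had no overlap, and 61.7% of those brighter than the median.

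Depth does not apply to arrays, and their number, 3 a group, limits the precision of every value. Array medians on the log2 scale were 4.75 to 4.76 in controls and 4.84 to 4.85 in the hydrogen group, so they differed by group. The SD over probe sets was 1.91 to 1.92 in controls and 1.80 to 1.82 in the hydrogen group, so the hydrogen arrays had a narrower spread of values. The change of a probe set went with its brightness: by decile of mean signal, the median over probe sets was 0.15 in the fourth, -0.18 in the eighth, -0.23 in the ninth and -0.13 in the tenth. The tenth held 10 of the members' probe sets, and the eighth 3. The groups did not overlap for 13 of the 17 probe sets, 8 lower and 5 higher, against 57.3% of all probe sets (26.4% lower and 30.9% higher) and 61.7% of the brighter ones (42.4% lower and 19.3% higher). Lung epithelial markers (Sftpa1, Sftpc, Sftpd, Scgb1a1, Ager, Aqp5 and Cldn18) were bright on every array, with means of 11.68 to 11.77 in controls and 11.66 to 11.70 after hydrogen, and 1 of the 7, Ager, fell. Cardiac muscle markers were present too and stood apart: 7 of 7 fell, where 26.4% of all genes were called lower. Their median change was -1.947, against a median of -0.103 in their brightness deciles. Their mean log2 value was 9.96, 9.59 and 9.80 in controls and 8.48, 6.27 and 7.82 in hydrogen replicates 1, 2 and 3. Hydrogen replicate 2 was thus the array with the least signal from heart muscle. Its mean of 3 measured adipocyte markers was lowest as well (4.33, against 7.20 to 7.37 in controls). Hydrogen replicates 1 and 3 had means of 7.32 and 5.66. Of these markers Adipoq fell, Car3 did not pass the threshold, and the dim Lep rose by 0.17. The labels name no batch, so a batch that ran with the groups cannot be told apart from the exposure. Nor can fewer cells of a type be told apart from less RNA per cell in whole lung.

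The upstream sequences of Sod2, Cat and Gpx8 are shown because Sod2 and Gpx8 had the smallest p among the genes that fell, and 1 of the 2 probe sets of Cat rose. They are the 250 bases before the RefSeq start in GRCm38.p6, read 5′ to 3′ on the strand of the gene. Capitals mark a GC box (GGGCGG or its reverse CCGCCC) or a CCAAT box (CCAAT or its reverse ATTGG). These motifs can share bases where they meet, which happens in none of the windows shown.
Sod2, chr17:13007589-13007838, plus strand: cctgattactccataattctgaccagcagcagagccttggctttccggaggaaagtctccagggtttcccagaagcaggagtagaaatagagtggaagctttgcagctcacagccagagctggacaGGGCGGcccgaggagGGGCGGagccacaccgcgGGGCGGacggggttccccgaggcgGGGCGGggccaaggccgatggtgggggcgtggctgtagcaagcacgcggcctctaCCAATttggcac
Cat, chr2:103485154-103485403, minus strand: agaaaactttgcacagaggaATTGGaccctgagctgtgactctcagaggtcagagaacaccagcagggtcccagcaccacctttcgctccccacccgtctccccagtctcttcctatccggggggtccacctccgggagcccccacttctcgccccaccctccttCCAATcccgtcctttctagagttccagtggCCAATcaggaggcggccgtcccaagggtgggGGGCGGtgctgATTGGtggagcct
Gpx8, chr13:113046389-113046638, minus strand: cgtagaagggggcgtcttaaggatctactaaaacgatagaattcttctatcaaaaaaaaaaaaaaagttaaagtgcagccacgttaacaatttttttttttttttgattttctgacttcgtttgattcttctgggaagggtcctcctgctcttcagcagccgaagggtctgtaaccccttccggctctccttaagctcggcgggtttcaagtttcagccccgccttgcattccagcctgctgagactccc

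Sod2 had 4 GC boxes, starting 124, 109, 91 and 67 bases before the start, and 1 CCAAT box. Cat had 1 GC box and 4 CCAAT boxes, and the window of Gpx8 held neither motif. Among all 32851 RefSeq promoter windows of this length, 32.7% held a GC box and 33.8% a CCAAT box, counted on both strands. The core of the antioxidant response element, TGACNNNGC or its reverse, was found in 1 of the 12 windows of the 9 member genes with an entry, that of Sod1, and in 10.2% of all windows. The forkhead motif GTAAACA or its reverse was in 0 of the 12 and in 3.17% of all windows. These matches describe letters in short windows, and the arrays did not measure binding.

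Sod2 showed the largest changes among the members, and its probe sets did not all move the same way. The brightest, 1448610_PM_a_at, read 9.46, 9.49 and 9.39 in control replicates 1, 2 and 3 and 8.96, 8.86 and 9.04 in hydrogen replicates 1, 2 and 3. The groups were clear of each other, and the fall was 0.49 on the log2 scale (log2 fold change -0.49, SE 0.06, 95% interval -0.64 to -0.35, adjusted p = 0.000816), a decrease to 0.71 of the control level. The probe set 1417193_PM_at read 9.30, 9.21 and 9.07 in controls and 8.84, 8.70 and 8.98 in the hydrogen group. It fell as well (log2 fold change -0.35, SE 0.09, adjusted p = 0.0115), with a gap of only 9.07 against 8.98 between the nearest mice, and the call was lost after quantile normalisation (-0.18, adjusted p = 0.118) and cyclic loess (-0.19, adjusted p = 0.107). The largest fall was that of 1454976_PM_at, from 7.08, 6.93 and 6.93 to 6.33, 5.80 and 6.30 (log2 fold change -0.84, SE 0.13, adjusted p = 0.00173). Hydrogen replicate 2 was the lowest array for all of these, and without it the changes were -0.45, -0.28 and -0.66, each still past the threshold (adjusted p = 0.00396, 0.0411 and 0.00184).

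The fourth Sod2 probe set, 1417194_PM_at, went up. It read 4.44, 4.65 and 4.71 in controls and 4.86, 4.95 and 5.16 in the hydrogen group, again without overlap (log2 fold change 0.39, SE 0.10, adjusted p = 0.0116). Its mean lay next to the median of all probe sets, 4.80, and probe sets in its brightness decile had a median change of 0.15. After cyclic loess it was 0.27 and no longer past the threshold (adjusted p = 0.0594). The platform annotation ties it to the same reference transcript as 1448610_PM_a_at and 1417193_PM_at, whereas 1454976_PM_at is annotated from another sequence record. The within-array difference between the brightest and this dim probe set was 4.85 ± 0.17 on the control arrays and 3.96 ± 0.12 on the hydrogen arrays (SD, n = 3), a shift of -0.88. Its exact two-sided permutation p was 0.1, the smallest that 3 against 3 arrays can give, and 0.125 after adjustment over the 10 within-gene pairs compared. All 3 pairs that set a falling Sod2 probe set against the rising one had groups that did not overlap. That outcome and the permutation p of 0.1 were set by the separate groups and opposite directions of the single probe sets. They add no evidence beyond those values. Of the falling ones, 1454976_PM_at fell more than 1448610_PM_a_at by 0.34 and more than 1417193_PM_at by 0.48, without overlap (exact permutation p = 0.1 each, adjusted 0.125). Between 1448610_PM_a_at and 1417193_PM_at the shift was -0.14, with overlapping groups (exact permutation p = 0.2, adjusted 0.222).

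**Figure D2:**
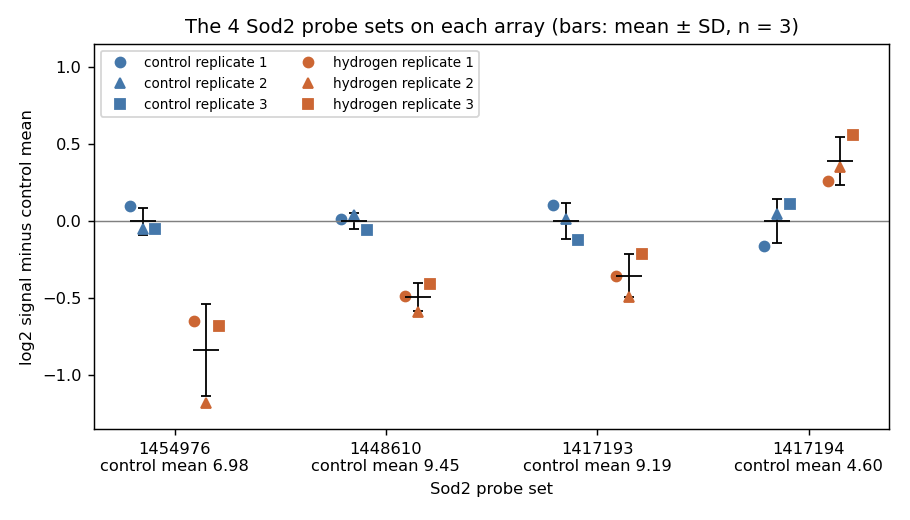
Log2 signal of the 4 Sod2 probe sets minus each probe set's control mean (vertical axis), by array. Symbols mark the replicate, and bars are group means with SD (n = 3). The hydrogen means lie at -0.84, -0.49 and -0.35 for 3 probe sets and at 0.39 for the dim 1417194_PM_at.

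Sod1 did not pass the threshold by its bright probe set. 1451124_PM_at read 10.65, 10.71 and 10.77 in controls and 10.66, 10.60 and 10.77 in the hydrogen group, so the groups covered the same range (log2 fold change -0.03, 95% interval -0.18 to 0.11, adjusted p = 0.695). Its sign turned after quantile normalisation (0.06) and cyclic loess (0.05), and without hydrogen replicate 2 (0.005). The probe set 1440222_PM_at, close to the median of all probe sets, read 4.82, 5.30 and 5.25 against 4.68, 4.68 and 4.93, where the lowest control lay inside the hydrogen range. It was called lower (log2 fold change -0.36, SE 0.13, adjusted p = 0.0481), but not once control 2, control 3, hydrogen 1 or hydrogen 2 was left out (adjusted p = 0.156, 0.133, 0.13 and 0.134 in that order).

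Sod3 fell by its brighter probe set. 1417633_PM_at read 6.91, 6.93 and 7.16 in controls and 6.61, 6.60 and 6.74 in the hydrogen group, with every hydrogen array below every control (log2 fold change -0.35, SE 0.08, adjusted p = 0.00833). The median change of its brightness decile was -0.18, and the call was lost after quantile normalisation (-0.15, adjusted p = 0.187) and cyclic loess (-0.17, adjusted p = 0.137). The dim 1417634_PM_at averaged 4.38 in controls and 4.41 after hydrogen, a difference of 0.03 (adjusted p = 0.79) whose sign turned with the scaling. Sod3 is also a product of smooth muscle cells of vessel walls. Of 5 smooth muscle markers measured, 4 fell (Myh11, Cnn1, Des and Actg2) and none rose, where 26.4% of all genes were called lower. Their median change was -0.577, against a median of -0.16 in their brightness deciles. Their mean log2 value was 7.68 to 7.75 in controls and 6.93 to 7.37 in the hydrogen group. The part of these markers in the Sod3 value was not tested. The part of the cardiac markers in the Sod2 values was likewise not tested.

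Catalase rose by 1 of its 2 probe sets. 1416430_PM_at read 9.86, 9.86 and 9.73 in controls and 10.16, 10.04 and 10.10 in the hydrogen group, with no overlap (log2 fold change 0.28, SE 0.06, adjusted p = 0.00696), a rise of 21.7%. It stayed past the threshold under all 13 alternatives run, at 0.19 to 0.40. The brighter 1416429_PM_a_at read 10.95, 10.83 and 10.71 against 10.98, 10.99 and 11.01. Here the gap between the nearest mice was 10.95 to 10.98, and the change of 0.16 did not pass (adjusted p = 0.0809). It passed after quantile normalisation (0.22, adjusted p = 0.0396), cyclic loess (0.23, adjusted p = 0.0309), an intensity trend with robust fitting (adjusted p = 0.0283) and without control replicate 1 (adjusted p = 0.0299), but shrank to 0.07 after median centring (adjusted p = 0.409) and to 0.10 without control replicate 3 (adjusted p = 0.223). The difference between these probe sets narrowed, with a shift of -0.12 (exact permutation p = 0.1, adjusted 0.125). Probe sets as bright as these had a median change of -0.13, so Cat moved against its brightness class. Of 4 markers of liver, an organ rich in catalase, 2 were at or below the median probe set. All 4 rose, from means of 4.20 to 4.30 in controls to 4.84 to 5.02 after hydrogen. Their median change was 0.645, against a median of 0.152 in their brightness deciles. Of 4 red blood cell markers measured, 0 rose and 1 fell. The median change of those 4 was -0.057, against -0.103 in their brightness deciles. The part of the liver or red blood cell markers in the Cat value was not tested.

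Of the selenium-dependent glutathione peroxidases, Gpx1 and Gpx2 fell, and Gpx4 rose by 1 of its 2 probe sets. Gpx1, the cytosolic and mitochondrial enzyme, read 11.06, 11.08 and 11.16 in controls and 10.85, 10.85 and 10.97 in the hydrogen group. The groups were separate but the change was small (log2 fold change -0.21, SE 0.06, adjusted p = 0.021), and it lost the call after quantile normalisation (-0.17, adjusted p = 0.0501), cyclic loess (-0.15, adjusted p = 0.0867), and when control 3, hydrogen 1 or hydrogen 2 was left out (adjusted p = 0.0593, 0.0682 and 0.0739). Gpx2, an enzyme of epithelia, read 7.58, 7.42 and 7.36 against 7.04, 7.21 and 7.10, a separation of the groups by 7.36 to 7.21 (log2 fold change -0.34, SE 0.08, adjusted p = 0.00741). Its decile had a median of -0.23, and after quantile normalisation it was -0.11 (adjusted p = 0.282) and after cyclic loess -0.14 (adjusted p = 0.175).

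Gpx3, the secreted plasma enzyme, did not pass the threshold. It read 10.03, 10.42 and 10.56 in controls and 9.96, 10.14 and 10.07 in the hydrogen group (log2 fold change -0.28, 95% interval -0.57 to 0.01, adjusted p = 0.0959). Control replicate 1 lay among the hydrogen mice, and without it the change was -0.43 (adjusted p = 0.0065). Without control replicate 3 it was -0.17 (adjusted p = 0.274), after cyclic loess -0.17 (adjusted p = 0.318), and after median centring -0.37, past the threshold (adjusted p = 0.0394).

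Gpx4, which reduces lipid peroxides within membranes and guards cells from ferroptosis, had values above control on every hydrogen array in both probe sets. 1456193_PM_x_at read 9.88, 9.96 and 9.95 in controls and 10.14, 10.12 and 10.09 in the hydrogen group, without overlap (log2 fold change 0.19, SE 0.05, adjusted p = 0.0204). The _x_ in its name marks a probe set with probes that can match other sequences. The call was lost after median centring (0.10, adjusted p = 0.169) and when control 1, hydrogen 1 or hydrogen 2 was left out (adjusted p = 0.0611, 0.0636 and 0.0612). The brighter 1451695_PM_a_at read 10.34, 10.29 and 10.38 against 10.53, 10.46 and 10.47, again apart, and its change of 0.15 stood at the threshold (adjusted p = 0.0503). After quantile normalisation it was 0.23 (adjusted p = 0.0117), after cyclic loess 0.24 (adjusted p = 0.00907) and after median centring 0.06 (adjusted p = 0.386). The Gpx4 probe sets differed by 0.41 ± 0.07 in controls and by 0.37 ± 0.03 after hydrogen (SD, n = 3), with overlapping groups. Like Cat, both stood above the median of their brightness decile, -0.13.

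The cysteine enzymes of the endoplasmic reticulum, Gpx7 and Gpx8, both fell. Gpx7 read 6.90, 6.67 and 6.66 in controls and 6.22, 6.44 and 6.37 in the hydrogen group (log2 fold change -0.40, SE 0.09, adjusted p = 0.0062), which as a linear fold fell by 24.2%. Gpx8 read 8.67, 8.48 and 8.49 against 8.20, 8.16 and 8.15, the tightest hydrogen group among the members that fell (SD 0.03, n = 3). Its log2 fold change was -0.38 (SE 0.07, adjusted p = 0.0026). In both genes every hydrogen mouse lay below every control. After quantile normalisation the changes were -0.22 for Gpx7 (adjusted p = 0.0706) and -0.17 for Gpx8 (adjusted p = 0.0711), neither past the threshold, and after cyclic loess -0.24 (adjusted p = 0.0489) and -0.19 (adjusted p = 0.046).

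**Figure D3:**
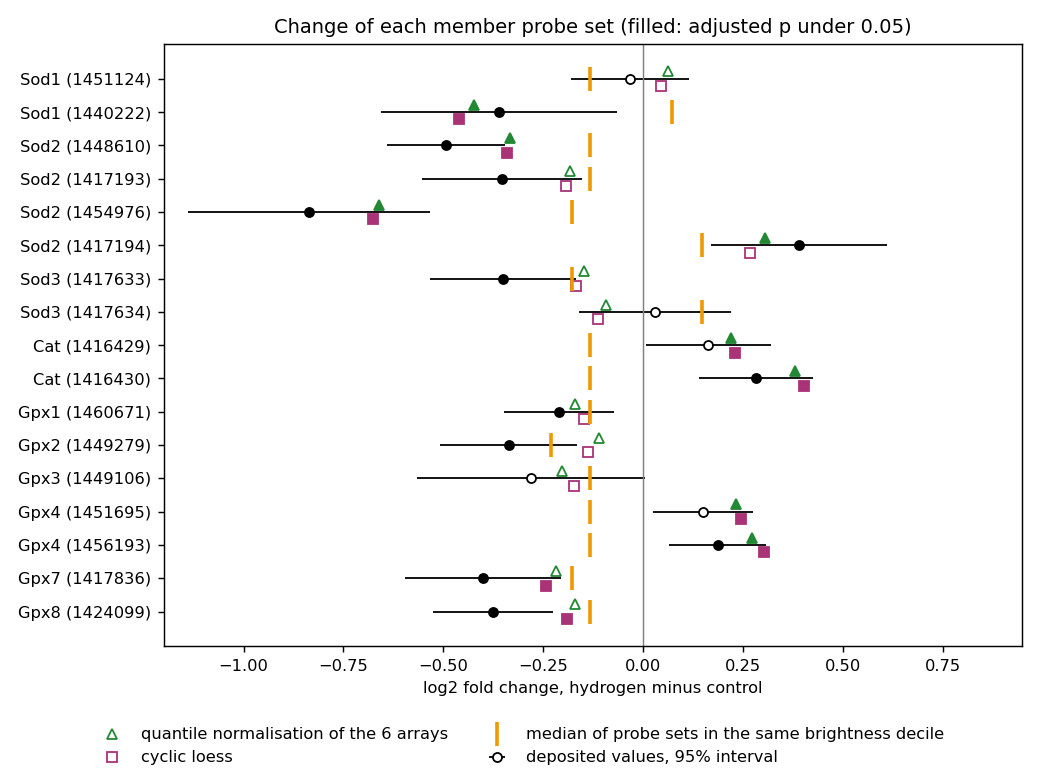
Log2 fold change, hydrogen minus control (horizontal axis), of each probe set (rows). Circles are the deposited values with 95% intervals, triangles quantile normalisation, squares cyclic loess, filled where the adjusted p is under 0.05, and orange bars the median of the brightness decile. Cat and Gpx4 lie right of 0 under each scaling, and Sod2 keeps 3 probe sets to the left and 1 to the right.

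With each gene read from its brightest probe set, so that it could be set beside genes of related pathways, 6 of the 10 members fell, 1 rose and 3 did not pass among 17097 genes tested, of which 52.5% were called, 26.4% lower and 26% higher. Gpx4 was the riser (0.15, adjusted p = 0.0482), a call lost on leaving out any 1 array (adjusted p = 0.0535 to 0.137), with median centring (0.378) and without dim probe sets (0.0535). Sod1, Cat and Gpx3 did not pass, though Cat did with the mean of its probe sets (0.22, adjusted p = 0.0134). Sod3 lost its call with the mean of its probe sets (-0.16, adjusted p = 0.109). The genes whose brightest probe set ran most like that of Sod2 over the 6 arrays were Krtap21-1 (Pearson r = 0.9996), Clcc1 (0.9994) and Cdkn1c (0.9988), among genes brighter than the median gene. The closest to Gpx8 were Fastkd2 (0.9976), Airn (0.9969) and Atp5h (0.9968). With 6 arrays in 2 separate groups, many genes follow such a course: 80 genes had r above 0.99 with Sod2 and 28 with Gpx8.

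The genes that serve these enzymes were described in lists by role, with counts beside the shares of 26.4% lower and 26% higher over all genes. Since change followed brightness, each list's median is given beside its brightness-matched value, the median over its genes of the median change in each gene's brightness decile. Of 10 measured genes of selenocysteine synthesis and insertion, on which Gpx1 to Gpx4 depend, 4 fell and 2 rose, and the median change was -0.16 (0.01 over all genes, brightness-matched -0.13). Secisbp2l, a relative of the protein that binds selenocysteine insertion elements, fell from 7.77 to 6.55 (log2 fold change -1.22, SE 0.17, adjusted p = 0.000906). Sephs2, which makes selenophosphate, fell by 0.68 (adjusted p = 0.000787), and Secisbp2, the insertion element binding protein itself, fell by 0.39 (adjusted p = 0.000985; by 0.17 after quantile normalisation and 0.20 after cyclic loess). Scly, which recovers selenium from selenocysteine, rose by 0.42 (adjusted p = 0.0162), a call lost when control 1, control 2 or hydrogen 1 was left out (adjusted p = 0.0521, 0.0596 and 0.0559). With the mean of all its probe sets Sephs2 was -0.43. Selenop, the plasma selenium carrier, named after its value was seen, had -0.02 (adjusted p = 0.804).

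Other selenoproteins fell in 5 of 15 cases and rose in 1, with a median of -0.12 (brightness-matched -0.10). Selenoo, a mitochondrial selenoprotein, fell by 0.35 (adjusted p = 0.00278). Selenoh fell by 0.36 and Selenon by 0.35, calls that were lost after quantile normalisation (adjusted p = 0.204 and 0.122) and cyclic loess (0.137 and 0.0852). The dim Dio2, a thyroid hormone deiodinase, rose by 0.40 (adjusted p = 0.00742), and by 0.25 after cyclic loess (adjusted p = 0.0504) and with the mean of all its probe sets.

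Of 15 genes of glutathione supply and reduction, 7 fell and 1 rose, and the median of -0.16 was nearer to 0 than the brightness-matched -0.21. Gclc and Gclm, the subunits of the enzyme that starts glutathione synthesis, fell by 0.68 and 0.50 (adjusted p = 0.000371 and 0.00117), and Gclm by 0.27 after quantile normalisation and 0.30 after cyclic loess. The mitochondrial glutaredoxin Glrx2 fell by 0.44 and the NADPH-making Idh1 by 0.32. Both calls were lost after quantile normalisation (adjusted p = 0.0867 and 0.0575) and cyclic loess (0.061 and 0.0507), and Glrx2 was -0.26 with the mean of all its probe sets. Of 8 peroxiredoxin and thioredoxin genes, which remove peroxides by another route, 2 fell and none rose, with a median of -0.10 (brightness-matched -0.10). Prdx4, the peroxiredoxin of the secretory pathway, fell by 0.42 (adjusted p = 0.00102), by 0.22 after quantile normalisation, 0.24 after cyclic loess and 0.20 with the mean of all its probe sets. Srxn1, sulfiredoxin, fell by 0.20 by its brightest probe set (adjusted p = 0.0313), a call lost after quantile normalisation and after cyclic loess, with a trend and on leaving out any array but hydrogen 2, but rose by 0.25 with the mean of its probe sets (adjusted p = 0.00415).

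Of 9 genes listed under copper and manganese delivery, 5 fell and 2 rose, and the median was -0.17 (brightness-matched -0.10). Ccs, the copper chaperone of Sod1, was -0.19 (adjusted p = 0.0267), and Atp7a, which loads copper into secreted enzymes such as Sod3, was -0.17 (adjusted p = 0.0379); both were named after their values were seen. The copper importer Slc31a1 fell by 0.27 (by 0.46 with the mean of its probe sets), but had -0.06 after quantile normalisation (adjusted p = 0.6) and -0.09 after cyclic loess (adjusted p = 0.449). The metal importer Slc39a14 fell by 0.28 and the mitochondrial carrier Slc25a39 by 0.22. Whether Slc25a39 has a part in manganese delivery was not tested here. On leaving out any 1 array, 1 to 3 genes of the list were called lower. After quantile normalisation 0 of the 9 were called lower and after cyclic loess 1. With the mean of all their probe sets Slc39a14 and Slc25a39 turned to 0.09 and 0.04. The dim copper pump gene Atp7b rose by 0.38 (adjusted p = 0.0121), a call lost after quantile normalisation (adjusted p = 0.0707) and cyclic loess (0.0781).

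Genes of peroxisome biogenesis, the organelle that houses catalase, fell in 5 of 12 cases and rose in 1, with a median of -0.23 (brightness-matched -0.19). The import gene Pex13 fell by 0.73 and Pex11a, a gene of peroxisome proliferation, by 0.63 (adjusted p = 0.000294 each). After quantile normalisation Pex13 fell by 0.51 and Pex11a by 0.41. With the mean of all probe sets Pex13 had -0.495 and Pex11a -0.77. Pex6, which recycles the import receptor, fell by 0.43 (adjusted p = 0.000632), by 0.21 after quantile normalisation, and had -0.05 without probe sets marked as shared (adjusted p = 0.56). Pex11g rose by 0.54 (adjusted p = 0.00258), and by 0.35 with the mean of its probe sets. After quantile normalisation and after cyclic loess alike 3 genes of this list were lower and 3 higher.

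Among 14 sources of superoxide and hydrogen peroxide, 7 rose and 2 fell, with a median of 0.15 (brightness-matched 0.01). Rac2, the small GTPase of the phagocyte oxidase, rose by 0.48 (adjusted p = 0.00201). Dao, the D-amino acid oxidase, rose by 0.47, Duox1, the dual oxidase of airway epithelium, by 0.38, and its maturation factor Duoxa1 by 0.34 (adjusted p = 0.000706, 0.00221 and 0.00362). The latter 3 were dim, with Dao at a mean of 4.31, Duox1 at 4.21 and Duoxa1 at 4.51, and the median change of genes in their brightness deciles was 0.20 to 0.21. After cyclic loess Duox1 was 0.24 and Duoxa1 0.19, and after quantile normalisation Duoxa1 was 0.22. The catalytic subunit of the phagocyte oxidase, Cybb, named in the same way, had -0.07 (adjusted p = 0.518).

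Of 16 regulators of these enzymes, 11 fell and 1 rose, with a median of -0.23 (brightness-matched -0.10). Foxo3, a forkhead factor known to drive Sod2 and Cat, fell from 9.43 to 8.50 (log2 fold change -0.93, SE 0.09, adjusted p = 0.00028), and by 0.50 with the mean of its probe sets. The deacetylase gene Sirt1 fell by 0.53 (adjusted p = 0.000517; by 0.31 after quantile normalisation and 0.33 after cyclic loess). The small Maf gene Maff fell by 0.37 (adjusted p = 0.0293), a call lost under quantile normalisation (adjusted p = 0.198), cyclic loess (0.166), and when control 2, control 3, hydrogen 1 or hydrogen 3 was left out (0.0761, 0.077, 0.0532 and 0.0916). The dim Foxo1 rose by 0.30 (adjusted p = 0.00418), by 0.18 after quantile normalisation and 0.17 after cyclic loess, where it did not pass (adjusted p = 0.0573). After quantile normalisation and after cyclic loess 4 regulators were lower in place of 11, and on leaving out 1 array 5 to 10. Gpx5 and Gpx6, glutathione peroxidases best known from epididymis and olfactory tissue, rose by 0.38 and 0.41 (adjusted p = 0.000921 and 0.0103) from control means of 4.88 and 4.50, near the median of all probe sets (median 0.40, brightness-matched 0.15), and Gpx6 was 0.28 after cyclic loess (adjusted p = 0.0514).

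**Figure D4:**
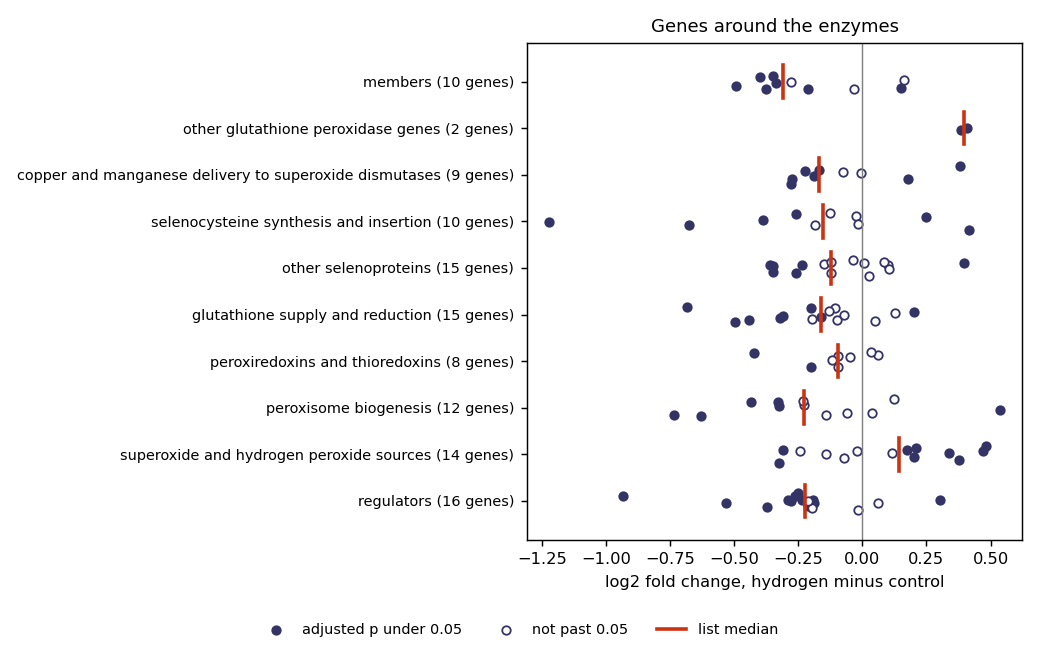
Log2 fold change, hydrogen minus control (horizontal axis), of each gene by its brightest probe set, for the 10 members and 9 lists of related genes (rows). Points are genes, filled where the adjusted p is under 0.05, and red bars are list medians. Secisbp2l at -1.22 and Foxo3 at -0.93 lie furthest left, and the sources of superoxide and hydrogen peroxide are the only list of over 2 genes with a median above 0.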

How the data were processed

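The deposited table holds log2 values of 45141 probe sets on MG-430 PM Array Strips, made by the authors with RMA and Affymetrix Expression Console, per the submitters' processing notes. No version of either tool, and no word on a joint normalisation of the 6 arrays, is given in the sources used here. After 104 control probe sets were left out, 45037 entered a linear model per probe set in limma (version 3.58.1, R 4.3.3; moderated variances without trend, no filter on low values), with Benjamini-Hochberg adjustment at 0.05. A second fit took the brightest probe set of each of 17097 genes. Fold changes are hydrogen minus control. Member symbols of all 17 probe sets matched RefSeq by Entrez identifier. Nothing in the labels tells how mice were housed, so an effect of housing cannot be told apart from the exposure. The p-values set each group difference against the spread between arrays within a group, which may be technical. Promoter windows came from RefSeq (GRCm38.p6). Probe and protein sequences were not used here.

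The members and lists were chosen with earlier results of these data known. From each related list, up to 4 genes past the threshold with the largest changes were named, and 3 genes most like each of the 2 members with the smallest p. Alternatives were a replicate block, median centring, quantile normalisation of the deposited values, cyclic loess, weights per array, an intensity trend with robust fitting, no dim probe sets (mean at or below the median), other choices of probe set, and leaving out each array. On simulated arrays with 45037 probe sets, limma recovered 56% of 100 probe sets changed by 0.5 on the log2 scale. It recovered 96% of 100 changed by 1, with 7 unchanged ones called. With 17097 genes the shares were 70% and 97%, with 9 unchanged genes called. The simulation changed far fewer probe sets than the 47.1% called in the data, and no change went with brightness. Its shares may therefore not carry over to these arrays. Same-numbered arrays did not deviate together (r = 0.08, 0.03 and -0.11). Python 3.11.15 and matplotlib 3.10.9 made the figures.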

Additional observations from a re-analysis of the deposited data

How the results depend on the processing

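The bright Sod2 probe set 1448610_PM_a_at and 1454976_PM_at stayed lower, and 1416430_PM_at of Cat higher, with the call kept under all 13 alternatives run for probe sets. The probe sets called higher were 5 after quantile normalisation and 5 with a trend and robust fitting, and those called lower were 3 after quantile normalisation and 5 after cyclic loess; on leaving out an array they were 2 to 3 higher and 7 to 10 lower. The sign of the bright Sod1 probe set turned to 0.062 (quantile normalisation), 0.046 (cyclic loess) and 0.005 (without hydrogen replicate 2), in the gene fit too, with a range of -0.08 to 0.005 on leaving out an array. The dim Sod3 probe set turned to -0.06 (median centring), -0.092 (quantile normalisation), -0.114 (cyclic loess) and -0.03 (without control replicate 2, and without hydrogen replicate 3), with a range of -0.03 to 0.09 on leaving out an array. Slc39a14 turned to 0.088 and Slc25a39 to 0.038 with the mean of all probe sets, Slc25a39 to 0.103 without shared probe sets, and Srxn1 to 0.247 and 0.257 under these settings. The cause was not tested.

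Same-numbered mice share only a number. With a replicate block 3 member probe sets were higher and 10 lower, Gpx3 passed the threshold (-0.28, adjusted p = 0.0425), and in the gene fit Gpx4 did not (0.15, adjusted p = 0.0754). Slc31a1 (adjusted p = 0.0568) and Maff (0.0525) lost their calls under the block, and no other named gene or member probe set changed its call. Under the block 1 copper and manganese delivery gene and 1 selenocysteine gene were higher.

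Counts of related lists moved under several settings. After cyclic loess they were 1 lower for copper and manganese delivery, 1 higher for selenocysteine synthesis, 0 higher and 1 lower for other selenoproteins, 0 higher and 2 lower for glutathione supply, 1 higher and 1 lower for peroxiredoxins and thioredoxins, 3 higher and 3 lower for peroxisome biogenesis, 0 lower for superoxide and hydrogen peroxide sources, 0 higher and 4 lower for regulators, and 1 higher for Gpx5 and Gpx6. After quantile normalisation they were 0 lower for copper and manganese delivery, 1 higher for selenocysteine synthesis, 2 higher and 1 lower for other selenoproteins, 0 higher and 2 lower for glutathione supply, 1 higher and 1 lower for peroxiredoxins and thioredoxins, 3 higher and 3 lower for peroxisome biogenesis, 0 lower for the sources and 4 lower for regulators. With median centring, which moved the median of all probe sets by -0.09, they were 1 higher for copper and manganese delivery, 1 higher for selenocysteine synthesis, 0 higher for glutathione supply, 5 lower for peroxiredoxins and thioredoxins, and 4 higher and 4 lower for the sources. With the mean of all probe sets they were 1 higher and 3 lower for copper and manganese delivery, 1 higher for selenocysteine synthesis, 2 higher for other selenoproteins, 0 higher for glutathione supply, and 1 higher and 1 lower for peroxiredoxins and thioredoxins, as also without shared probe sets. Peroxiredoxins and thioredoxins had 1 lower with a trend and robust fitting. Without dim probe sets, where fewer genes were tested, counts of higher genes were 1 for copper and manganese delivery, 1 for selenocysteine synthesis, 0 for other selenoproteins, 0 for glutathione supply, 3 for the sources, 0 for regulators and 1 for Gpx5 and Gpx6.

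On leaving out an array, the lists had 1 to 2 higher and 1 to 3 lower for copper and manganese delivery, 0 to 2 higher for selenocysteine synthesis, 0 to 1 higher for glutathione supply, 1 to 2 lower for peroxiredoxins and thioredoxins, 4 to 6 higher and 1 to 2 lower for the sources, and 5 to 10 lower for regulators. Signal close to the median probe set limits 1440222_PM_at of Sod1, 1417194_PM_at of Sod2 and 1417634_PM_at of Sod3.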
